A study of Mus musculus with 4 samples.

Results

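The immunoglobulin heavy and light chain genes were represented by 11 probes of 10 gene names on a mouse whole-genome array of 39429 probes. They were taken as the non-control probes whose gene name in the scanner files starts with Igh, Igk or Igl, leaving out Ighmbp2 and Iglon5, a helicase-like gene and a cell adhesion gene. Heavy chain names accounted for 3 probes, kappa names for 6 probes of 5 genes, and lambda names for 2, one of which was the surrogate light chain gene Igll1. Lung RNA was hybridised to 4 one-colour arrays, 1 per group: Pla2g3+/+ control, Pla2g3-/- control, Pla2g3+/+ challenged and Pla2g3-/- challenged. Each array carried RNA pooled from 4 samples. Challenged mice had been sensitised by injection of 10 µg ovalbumin with 1.3 mg alum on days 0 and 14, breathed 1% ovalbumin aerosol for 30 min on days 26, 27 and 28, and gave their lungs 48 h later. The same protocol text is attached to the controls, so the sources used here do not give what they received. Strain, age and sex were not stated in the labels used here.

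Values came from a pair of sources, the arrays' scanner files and the authors' value table of the same samples, and each was normalised and compared only within itself. A scanner level is log2 of the processed intensity minus the 75th percentile of the array; a table level is log2 of the signal. Centred on each probe's mean, the columns of the table correlated with the scanner arrays at r between -0.15 and 0.21 across 28610 probes in every pairing, and at -0.03 to 0.21 under the same names (probes are not independent replicates). So the sources are given side by side and never averaged. Between 79.2% and 81.9% of spots were above background on the scanner arrays, and 79.8% to 82.1% in the table. Pla2g3, the gene named as deleted, was 9.14-fold higher in the scanner files and 22.1-fold higher in the table on the Pla2g3-/- control array than on the Pla2g3+/+ one, and 14.9-fold and 25.4-fold higher after challenge. That is the opposite of what the labels would give if the probe lay in the deleted part. Where the probe lies in relation to the deletion was not examined. Arrays are therefore named here by label alone (KO-labelled, WT-labelled), and a direction between them is a direction between labels.

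Immunoglobulins are built from a pair of identical heavy chains and a pair of identical light chains, kappa or lambda. In each developing B cell a variable (V) segment is joined to D and J segments for the heavy chain, or to a J segment for a light chain, and the joined exon is spliced to constant exons. Class switching later replaces the mu and delta constant exons by those of a gamma, epsilon or alpha class, and plasma cells, which secrete antibody, carry far more of these transcripts than other B cells. In the allergic airway, antigen-specific IgE and IgG1 are the classes best known, and IgA is the main class passed across the airway epithelium. In RNA from whole lung, fewer cells of a type and less RNA per cell cannot be told apart.

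The probe sequences show which piece of a chain each name reports. The following 5 were printed because the differences described below fall on them, or because they separate segment types; all are 60 bases long, lie on the minus strand of mm9 and come from the scanner files.
Igh-VJ558, chr12:114498348-114498407: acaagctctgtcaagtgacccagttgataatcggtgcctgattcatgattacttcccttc
Iglv1, chr16:19061905-19061964: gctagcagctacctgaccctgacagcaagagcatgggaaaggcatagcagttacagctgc
Igll1, chr16:16861104-16861163: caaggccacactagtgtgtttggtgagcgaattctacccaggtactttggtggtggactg
Ighv1-33, chr12:117247846-117247905: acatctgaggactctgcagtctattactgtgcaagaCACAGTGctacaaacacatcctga
Igkv6-20, chr6:70286426-70286485: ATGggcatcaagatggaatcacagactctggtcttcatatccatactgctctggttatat
Capitals in Ighv1-33 mark CACAGTG, the heptamer of the recombination signal that borders an unrearranged V segment, starting at base 37. The heptamer on either strand occurred in 620 of 39429 probe sequences (1.57%) and in 3 of 163 other probes on the variable side of the loci (1.84%). A match is a description of the letters only. Capitals in Igkv6-20 mark a start codon at base 1, so this probe covers the leader end of its V segment. Igh-VJ558 and Iglv1 carry the names of variable segments. Yet the Igh-VJ558 probe lies between Tmem121 and the IgE probe, where the RefSeq order (GRCm38.p6) has Igha, the IgA constant gene, and the Iglv1 probe lies next to the lambda 3 constant probe, where that order has Iglc1. Both had 1 reading frame without a stop. Of the other 6 named probes, 1 lies at the leader end of Igkv4-53, and 5 (a further Igkv4-53 probe, Igkv4-55, Igkv4-72, Igkv6-15 and Igh-V3660) were designed on expressed sequence tags with no position in the files. No named probe carried the name of a constant gene. The constant classes are therefore described from other probes, after the named ones.

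All 11 named probes were examined. In the scanner files 7 were above background on 4 arrays, 2 on some arrays and 2 on none; in the table the counts were 7, 4 and 0. Levels of different probes are not set against each other, since probes bind with different strength.

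Among the heavy chain names, the Igh-VJ558 probe at the IgA constant position was lower on the KO-labelled arrays in the table and higher on them in the scanner files. Its table level was 2.30 (WT-labelled control), 1.18 (KO-labelled control), 1.94 (WT-labelled challenged) and 0.81 (KO-labelled challenged). The KO-labelled array was lower by 2.17-fold in controls and 2.19-fold after challenge. In the same order its scanner levels were -4.96, -3.16, -5.97 and -4.65. There the KO-labelled array was higher, by 1.80 ± 0.21 in controls and 1.32 ± 0.23 after challenge on the log2 scale. The ± is from the scanner's own spot error and leaves out any spread between mice. Challenged arrays were lower than controls of the same label in each source, by 2.01-fold and 2.81-fold in the scanner files and by 1.28-fold and 1.29-fold in the table.

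Ighv1-33, a V segment whose probe holds the heptamer letters, had the widest gap between labels in the table among the heavy chain names. They were 1.1 and 0.78 on the WT-labelled control and challenged arrays and -2.07 and -2.04 on the KO-labelled ones. The KO-labelled arrays were thus 8.97-fold lower in controls and 7.08-fold lower after challenge. Challenge and control differed by -0.31 and 0.03 on the log2 scale in the WT-labelled and KO-labelled pairs. Scanner levels had the opposite order: -5.02 and -5.55 on the WT-labelled control and challenged arrays, -4.28 and -4.24 on the KO-labelled ones. Igh-V3660, an expressed-sequence-tag probe, differed little: its levels lay between -2.50 and -2.30 in the scanner files and between -6.15 and -5.94 in the table.

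Of the kappa names, Igkv6-20 (the leader probe) was lower on the KO-labelled arrays and lower after challenge in the table. Its table levels were -1.96 on the WT-labelled control, -4.21 on the KO-labelled control, -2.80 on the WT-labelled challenged and -5.60 on the KO-labelled challenged array. That is 4.78-fold lower on the KO-labelled array in controls and 6.97-fold lower after challenge, and 1.79-fold and 2.62-fold lower with challenge in the WT-labelled and KO-labelled pairs. Its scanner control levels, -6.06 and -6.01, differed by less than their error (0.05 ± 0.26). After challenge the KO-labelled array stood at -7.04, 2.05-fold below its control. The WT-labelled array was not well above background. Its reading there was 2.93-fold below its control, a measured difference and not a bound. Challenge thus went with a lower value for Igkv6-20 in both pairs of both sources.

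The leader probe of Igkv4-53 was above background only in the table, where 1 array stood apart: -2.58 on the WT-labelled control array against -6.77, -6.42 and -6.68 on the KO-labelled control, WT-labelled challenged and KO-labelled challenged arrays. Its 18.2-fold difference between the control arrays and its 14.3-fold difference within the WT-labelled pair both rest on that array. In the table the other Igkv4-53 probe, from the same clone, gave -8.16 on the WT-labelled control and -8.22 on the WT-labelled challenged array. It was at background on both KO-labelled arrays there, so the pair of probes did not share the high value. On every scanner array that probe was above background, with log2 label differences of -0.14 in controls and 0.20 after challenge. Its scanner challenge difference, averaged over labels, was -0.25. Igkv6-15, like the Igkv4-53 leader probe, was at background on every scanner array. In the table it was above background on the WT-labelled challenged array (-5.88) and the KO-labelled control array (-8.05) and at background on the others. Set against the lowest signal counted as above background, it was 6.84-fold higher on the WT-labelled challenged array than on its control. By the same measure it was 4.56-fold higher than on the KO-labelled challenged array. Both folds are approximate, since that lowest signal can lie below the background threshold (-8.43 and -8.04 on those arrays).

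Igkv4-72 had levels within 0.33 of each other in the scanner files, from -3.14 to -2.81. Its table levels were -3.12 and -3.10 on the WT-labelled control and challenged arrays and -3.64 and -3.89 on the KO-labelled ones. The KO-labelled arrays were lower by less than 2-fold in each treatment. Igkv4-55 stood near background, from -7.24 to -6.44 in the scanner files, and was above background in the table only on the WT-labelled control array.

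The Iglv1 probe, at the Iglc1 position, was lower on the KO-labelled arrays in the table, as were Igh-VJ558 and Ighv1-33. Its table levels were 2.96 and 2.83 on the WT-labelled control and challenged arrays, and 0.96 and 0.20 on the KO-labelled ones. The KO-labelled arrays were 4.0-fold lower in controls and 6.15-fold lower after challenge. Scanner levels of -1.15, -1.31, -1.92 and -1.64 (WT-labelled control, KO-labelled control, WT-labelled challenged, KO-labelled challenged) differed by -0.16 ± 0.20 between control arrays and 0.28 ± 0.20 between challenged ones. Igll1, the lambda-like part of the surrogate light chain of pre-B cells, gave -6.37, -6.55, -6.15 and -7.34 in the scanner files, in the same order. Its KO-labelled challenged array was 2.29-fold below the WT-labelled one. In the table it lay close to background, from -8.43 to -7.82, with the KO-labelled challenged array the highest. Vpreb1, its partner in the surrogate light chain, differed between the arrays by less than 2-fold in both sources (-2.95 to -2.45 in the scanner files, -3.63 to -3.16 in the table).

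**Figure D1:**
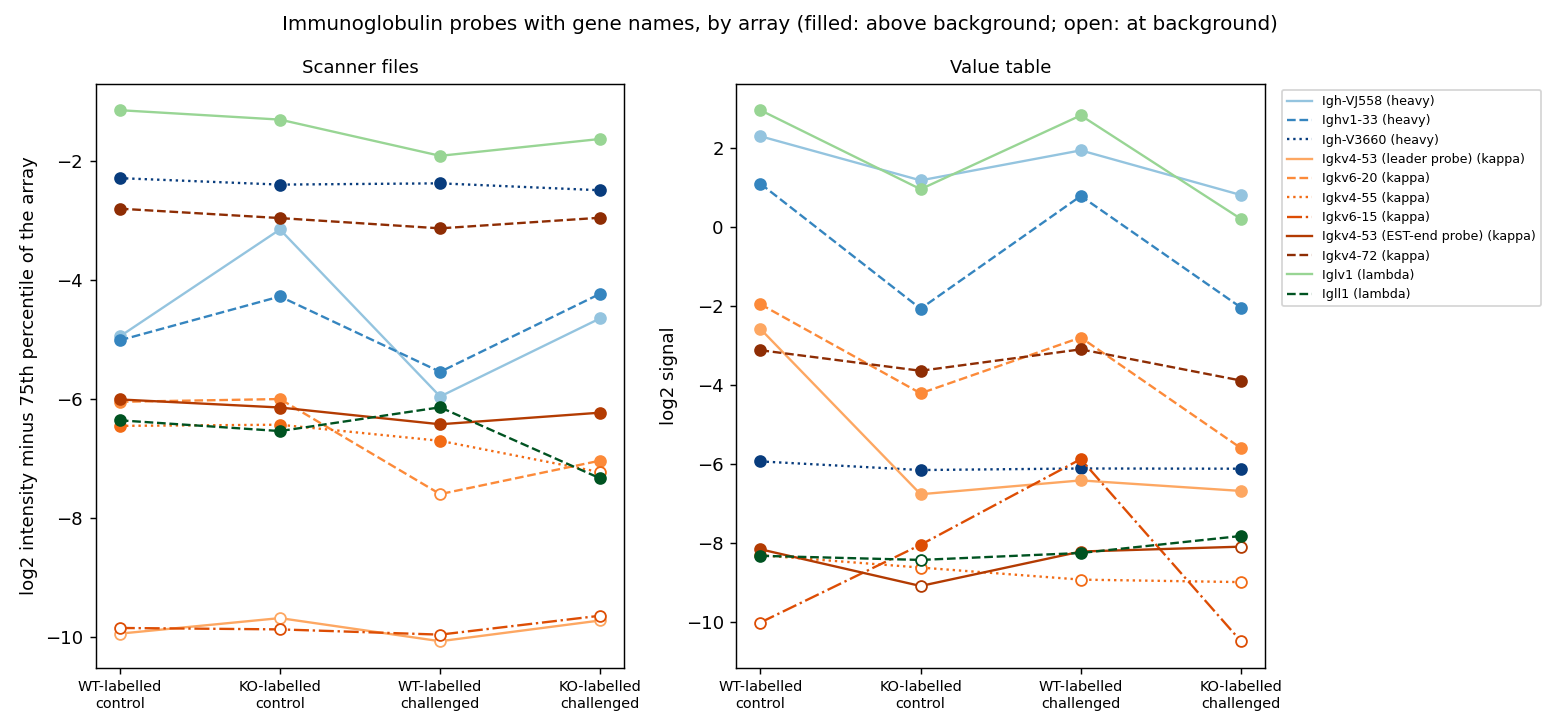
Log2 level of the 11 named immunoglobulin probes on each of the 4 arrays (x axis), in the scanner files (left) and the value table (right); lines join the values of 1 probe, and open points are at background. In the table Iglv1, Ighv1-33, Igkv6-20 and Igh-VJ558 are lower on both KO-labelled arrays; in the scanner files Igh-VJ558 and Ighv1-33 are higher there.

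Counted over the named probes, the table showed lower values on the KO-labelled arrays. At 2-fold or more, 5 of 11 measured probes were lower and 1 higher in controls, against 2.98% and 1.76% of all probes, and 5 of 10 lower and 0 higher after challenge, against 3.43% and 2% of all probes. The median difference was -0.93 in controls and -0.96 after challenge, where all probes had medians of -0.01 and 0.00; with values at background raised to the floor it was -0.52 and -0.96. In the scanner files 1 of 9 was higher and 0 lower in controls (3.5% and 2.3% of all probes), and 2 of 9 were higher and 1 lower after challenge (4.02% and 3.8%), with medians of -0.11 and 0.20. Of the 6 probes above background on all arrays of a contrast in both sources, the sources agreed on the sign for 3 in controls and for 1 after challenge.

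For challenge against control the named probes had fewer lower calls and medians smaller in size in the table than between labels. Their scanner medians for challenge were larger in size than those between labels. In the scanner files 0 of 9 were higher and 2 lower in the WT-labelled pair (2.28% and 1.94% of all probes), and 0 of 9 higher and 2 lower in the KO-labelled pair (4.14% and 4.16%); those lower were Igh-VJ558 and Igkv6-20 in both pairs. Medians were -0.42 and -0.33. Table values put 1 of 11 higher (Igkv6-15) and 1 lower (the Igkv4-53 leader probe) in the WT-labelled pair (2.18% and 0.976% of all probes), and 0 of 9 higher and 2 lower in the KO-labelled pair (3.08% and 1.23%). Those 2 were Igkv6-20 and Igkv6-15, the latter at background after challenge and with a bound of only 1.01-fold. Medians were -0.18 and -0.25, and -0.13 and -0.019 with values at background raised to the floor. The pairs that share an array (each contrast shares 1 array with 2 others) are not independent of one another.

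With 1 array per group a pairwise difference has no replicate check. The additive limma fit over all 4 arrays, with 1 residual degree of freedom, called 0 of 33337 scanner probes and 0 of 33142 table probes at an adjusted p of 0.05 for challenge, and 0 and 0 for genotype label (0% of all probes in each). At an unadjusted p under 0.05 the counts were 3196, 2946, 3531 and 4599. Among the named probes 0 passed, with 2 of 9 (scanner, challenge), 3 of 11 (table, challenge), 2 of 9 (scanner, label) and 5 of 11 (table, label) at an unadjusted p under 0.05. The smallest adjusted p (limma, Benjamini-Hochberg) was 0.105, for Ighv1-33 in the table, whose averaged label difference was -2.99 ± 0.13 (SE). With a variance trend in the fit, 5 named probes passed for the label in the table, where 4.25% of all probes did: Ighv1-33, Igh-VJ558, Igkv6-20, Iglv1 and Igkv4-72, with adjusted p from 0.000277 to 0.0384. With the fit limited to probes above background on 4 arrays, 3 passed (Ighv1-33, Igkv6-20 and Igh-VJ558), against 1.07% of all probes.

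The array also holds immunoglobulin probes named only by transcript or sequence accession, and 179 of them, of 167 names, could be recognised from their description at the heavy, kappa and lambda loci. Of these, 16 lie on the constant side (12 heavy, 1 kappa, 3 lambda) and 163 on the variable side (78 heavy, 83 kappa, 2 lambda). Constant classes were taken from the description for IgM, IgD, IgG3, IgG2b, IgG2a, IgE and lambda 3, and from the order of genes in RefSeq for IgG1, IgA, kappa and lambda 2; 1 heavy probe stays without a class. V segments of a family are similar in sequence, so a variable-side probe may bind more than 1 of them.

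In the table the gamma classes were lower on the KO-labelled arrays by 12.3-fold or more, and the IgA probes differed less. IgG2b, a complement-binding class, had levels of 5.53 and 5.38 on the WT-labelled control and challenged arrays and 0.92 and 0.52 on the KO-labelled ones, a 24.5-fold difference in controls and 29.0-fold after challenge. IgG1 was 17.2-fold and 16-fold lower by one probe and 42.2-fold and 41.7-fold by the other. IgG3 and both IgG2a probes stood between 12.3-fold and 21.4-fold lower in each treatment. The accession-named IgA probes were 1.43-fold and 1.60-fold lower in controls and 1.36-fold and 1.59-fold after challenge, less than the 2.17-fold and 2.19-fold of the Igh-VJ558 probe at the same constant position, and the IgD probe, delta being a class of naive B cells, 1.97-fold and 1.64-fold. IgM, kappa and lambda were intermediate: IgM 3.17-fold and 3.62-fold lower, kappa 2.54-fold and 3.45-fold, lambda 3 2.20-fold and 2.92-fold. The Iglv1 probe, at the lambda 1 constant position, was lower by more, 4.0-fold and 6.15-fold. All probes of these classes had the WT-labelled array above the KO-labelled one in both treatments, IgE excepted. The median log2 difference of all probes on the array was -0.01 in controls and 0.00 after challenge. None passed the limma test, and neither did any other of the 33142 table probes. The smallest adjusted p (limma, Benjamini-Hochberg) over all accession-named immunoglobulin probes was 0.0985. At an unadjusted limma p under 0.05 for the label there were 147 of 176 such probes, against 13.9% of all probes. Probes are not independent replicates.

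IgE, the class bound by mast cells, was the one constant probe higher on the KO-labelled control array in the table. Its levels there were -5.52 on the WT-labelled control, -3.81 on the KO-labelled control, -3.14 on the WT-labelled challenged and -3.63 on the KO-labelled challenged array. The WT-labelled control array alone stood low, so challenge went with a 5.19-fold higher value in the WT-labelled pair and 1.14-fold in the KO-labelled pair. On the scanner side both control arrays were at background and both challenged arrays above it, at -6.88 and -5.96, so IgE was at least 1.74-fold and at least 3.36-fold higher after challenge in the WT-labelled and KO-labelled pairs. A higher IgE value on the challenged array was thus found in both pairs of both sources, with no replicate check.

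Challenge went with a higher IgG3 value in the table, 3.75-fold in the WT-labelled and 5.68-fold in the KO-labelled pair. Scanner values of IgG3 were 2.35-fold and 1.93-fold lower. The first IgG1 probe was 1.89-fold and 2.02-fold higher after challenge in the table and the other 1.28-fold and 1.27-fold lower, so probes of 1 class did not agree. Other constant probes in the table differed by less than 2-fold between challenged and control arrays in both pairs.

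**Figure D2:**
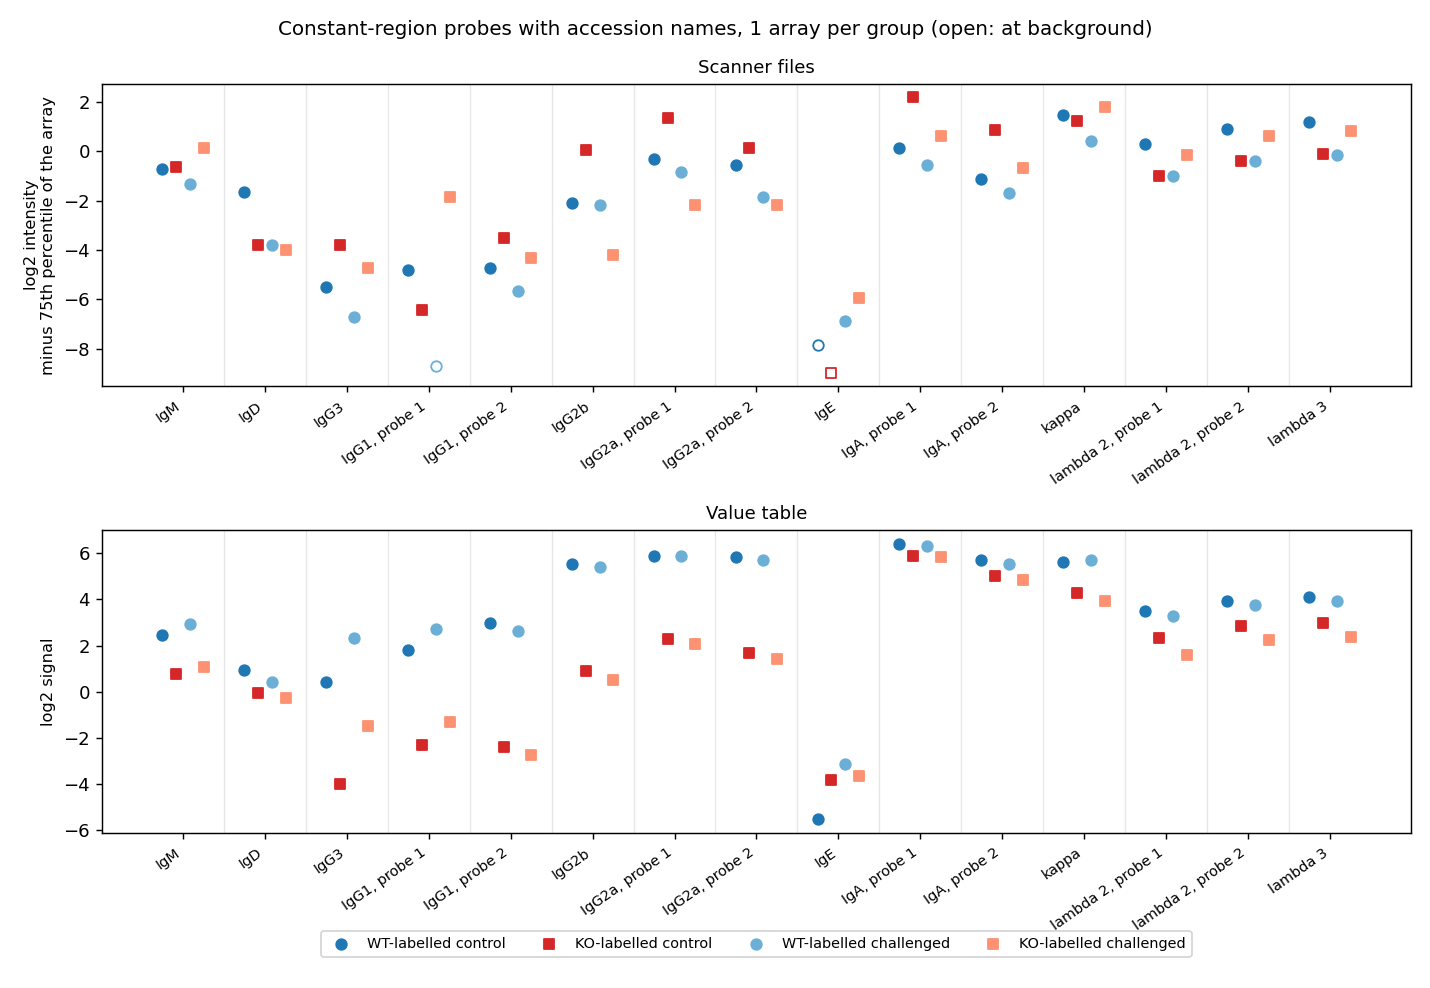
Log2 level of the constant-region probes with a class, on the 4 arrays, in the scanner files (top) and the value table (bottom); circles are WT-labelled, squares KO-labelled, darker colours control and lighter ones challenged, and open points are at background. In the table the squares of the gamma classes lie 12.3-fold or more below the circles while those of the 2 accession-named IgA probes lie less than 2-fold below; IgE on the WT-labelled control array is the lowest IgE value.

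The scanner files gave another order of the same classes. IgA was higher on the KO-labelled arrays by both probes, 4.13-fold and 3.96-fold in controls and 2.30-fold and 2.02-fold after challenge. IgG2b was 4.45-fold higher on the KO-labelled array in controls and 4.09-fold lower after challenge. Its levels were -2.10 and -2.16 on the WT-labelled control and challenged arrays, 0.06 on the KO-labelled control and -4.19 on the KO-labelled challenged array, so the KO-labelled arrays lay on either side of the WT-labelled ones. The first IgG1 probe was 24.3-fold higher after challenge in the KO-labelled pair (-6.44 against -1.84), and at least 63.5-fold higher on the KO-labelled than on the WT-labelled challenged array, which was at background. The second IgG1 probe differed by 1.77-fold in the opposite direction in the KO-labelled pair. The IgD probe was highest on the WT-labelled control array, at -1.64, against -4.01 to -3.80 on the others. Lambda constant probes were 2.42-fold to 2.45-fold lower on the KO-labelled array in controls and 1.82-fold to 2.01-fold higher after challenge.

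Variable segments were compared with constant ones by counts and medians. Of the variable-side probes in the table, 142 of 160 were at least 2-fold lower on the KO-labelled array in controls and 144 of 157 after challenge, and 0 were at least 2-fold higher in either (of all probes, 2.98% and 3.43% were lower and 1.76% and 2% higher); the median differences were -2.43 and -2.65. Heavy segments had medians of -2.72 and -2.77 and kappa segments -2.21 and -2.52. The 16 constant probes had medians of -1.51 and -1.75, with 12 lower in each treatment. Within the heavy chain the order was not kept: the 12 heavy constant probes had medians of -2.95 and -2.84, lower than those of the heavy variable side. Scanner values of the variable-side probes had a median of -0.14 in controls, with 8 higher and 15 lower of 124 (3.5% and 2.3% of all probes). After challenge the median was 0.40, where all probes had -0.06, and 33 of 125 were higher and 6 lower (4.02% and 3.8% of all probes).

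**Figure D3:**
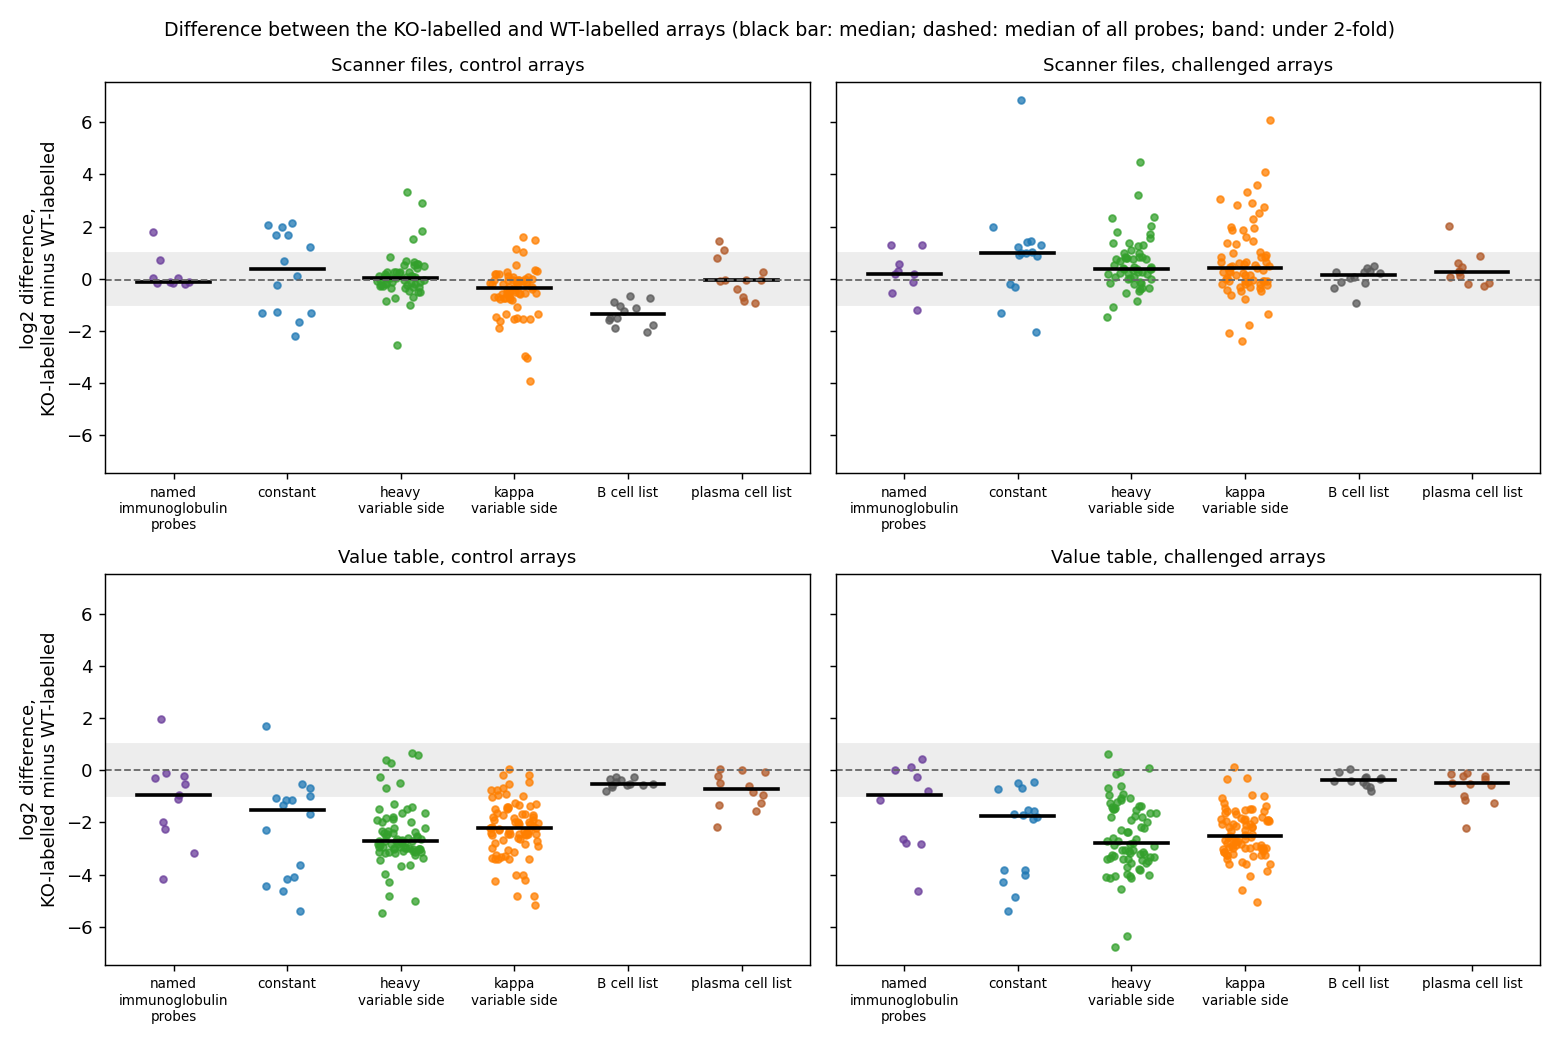
Log2 difference between the KO-labelled and WT-labelled array for each probe or gene (y axis) in 6 sets (x axis), for control arrays (left) and challenged arrays (right), in the scanner files (top) and the table (bottom); points are jittered sideways, and values above background on 1 array of the pair are included as measured. In the table heavy and kappa variable-side medians are -2.72 and -2.21 in controls while the B cell list median is -0.54; in the scanner files the corresponding medians are 0.04, -0.36 and -1.35.

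With challenge, variable-side probes spread in both directions. Of the table values, 23 of 160 were at least 2-fold higher and 46 lower in the WT-labelled pair (median -0.17), against 2.18% and 0.976% of all probes. In the KO-labelled pair 9 of 154 were higher and 25 lower (median -0.51), against 3.08% and 1.23%. Scanner values gave 7 higher and 23 lower of 125 in the WT-labelled pair (2.28% and 1.94% of all probes) and 26 higher and 12 lower of 123 in the KO-labelled pair (4.14% and 4.16%), with medians of -0.51 and 0.28. The kappa segments nearest the kappa constant probe (within 783 kb) had 14 of 21 higher in the KO-labelled pair of the scanner files, median 1.46, against medians of -0.07 and 0.21 in the middle and farthest sets of kappa probes. Its scanner median in the WT-labelled pair was -0.70, with 3 higher and 7 lower, beside -0.70 and -0.68 in the other sets, and its table median in the KO-labelled pair was -0.52, with 1 higher and 5 lower, beside -0.75 and -0.20. In the table's WT-labelled pair the nearest, middle and farthest kappa sets had medians of 0.16, -0.84 and -0.056. The heavy segments in the table were set apart by distance into 3 sets of 26 probes. The set nearest IgM (157 to 732 kb away) had a median of -0.94 in the WT-labelled pair, with 11 of 25 at least 2-fold lower and 3 higher. The middle and farthest sets (755 to 1493 kb and 1570 to 2579 kb) had medians of 0.04 and -0.05, with 4 of 24 and 8 of 26 lower. In the KO-labelled pair the medians of the 3 sets were -0.22, -0.32 and -0.56. Scanner medians of the heavy sets in the WT-labelled pair were -0.38, -0.22 and -0.49, with 1 probe lower in each. These sets were chosen after values had been seen and no difference between them was tested.

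**Figure D4:**
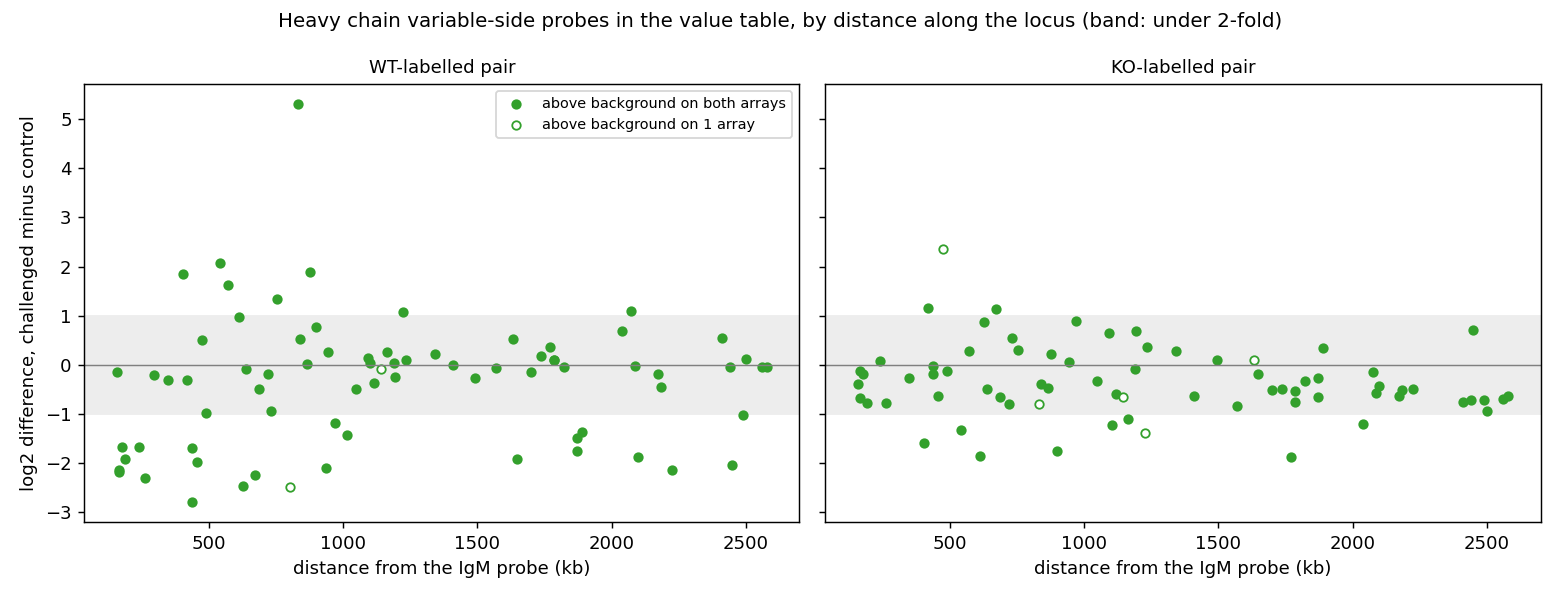
Log2 difference between challenged and control arrays in the value table (y axis) against distance of heavy chain variable-side probes from the IgM probe in kb (x axis), for the WT-labelled pair (left) and the KO-labelled pair (right); open points were above background on 1 array only. In the WT-labelled pair the probes nearest IgM have a median of -0.94 and those farther a median near 0, with wide scatter in each set.

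**Figure D5:**
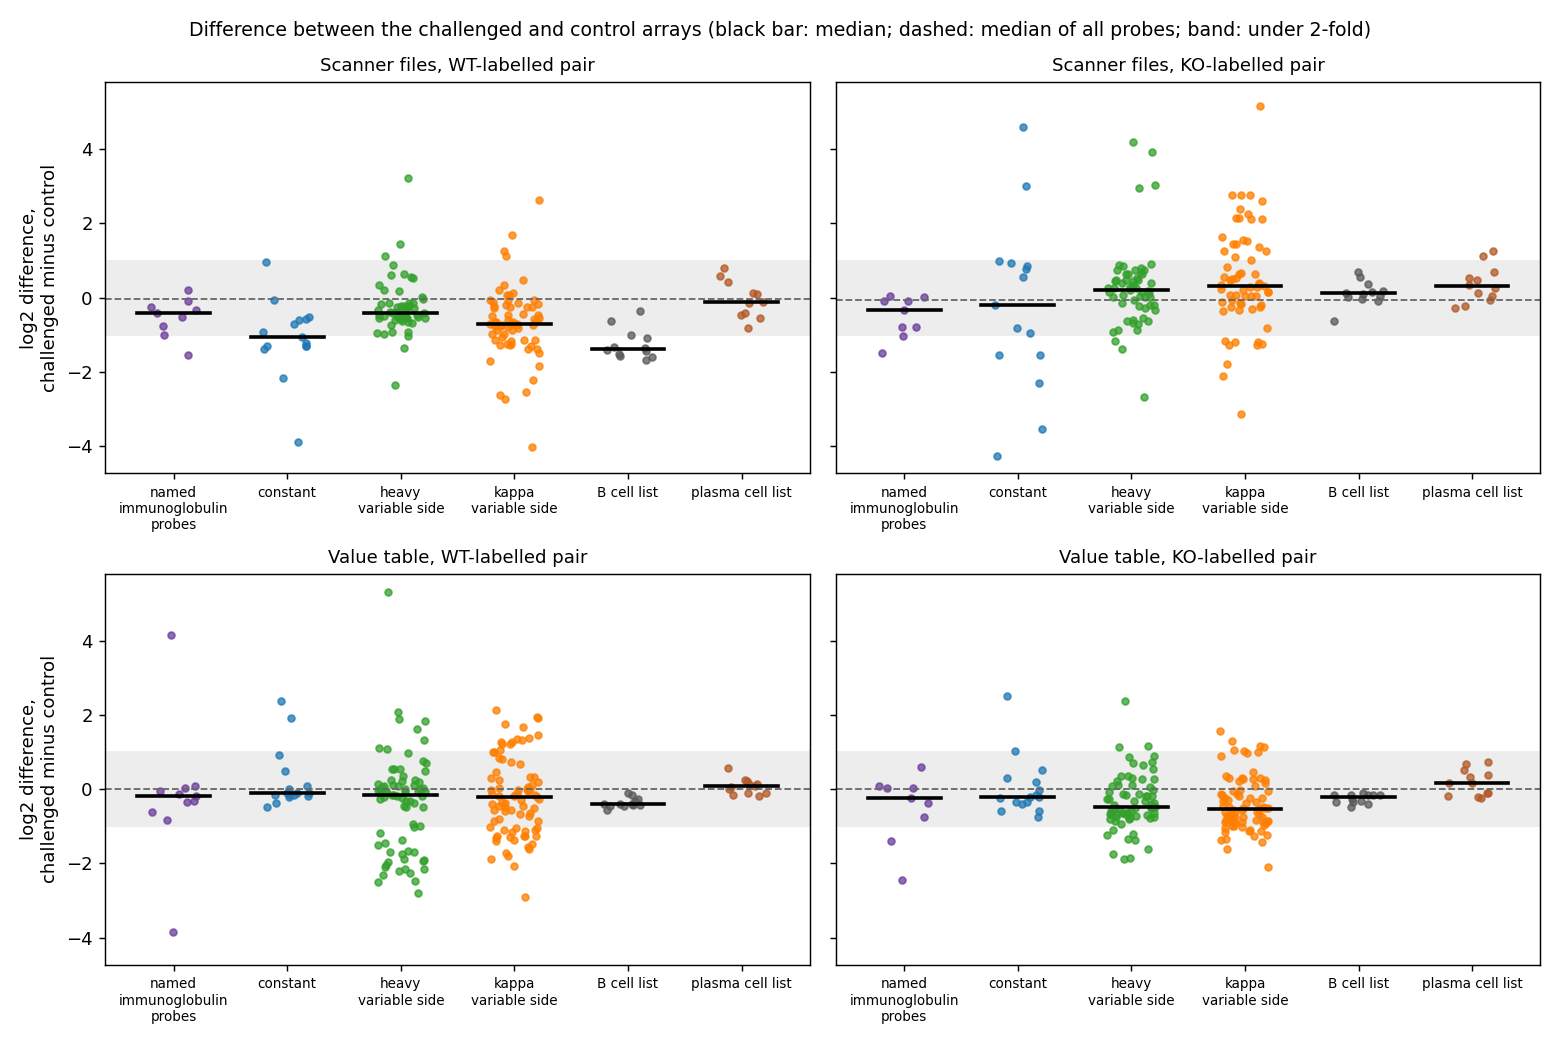
Log2 difference between challenged and control array for each probe or gene (y axis) in the same 6 sets, for the WT-labelled pair (left) and the KO-labelled pair (right), in the scanner files (top) and the table (bottom). The B cell list is lower in the WT-labelled pair of the scanner files (median -1.38), and the set medians in the table lie between -0.53 and 0.16.

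Genes of the cells that make immunoglobulin were set beside these values from lists of markers. Of the B cell genes in the table, 0 of 12 differed by 2-fold or more between KO-labelled and WT-labelled arrays in either treatment, with medians of -0.54 and -0.37. Of all probes, 2.98% were lower and 1.76% higher in controls, and 3.43% and 2% after challenge. Cd79a, which signals for surface immunoglobulin, was at 1.29 on the WT-labelled control, 0.74 on the KO-labelled control, 0.89 on the WT-labelled challenged and 0.26 on the KO-labelled challenged array. Of 12 plasma cell genes, 4 were at least 2-fold lower on the KO-labelled array in controls and 3 after challenge, against the same 2.98% and 3.43%. Jchain, which joins units of IgA and IgM, was at 4.69 and 4.53 on the WT-labelled control and challenged arrays and 2.51 and 2.31 on the KO-labelled ones. Tnfrsf17, the survival receptor of plasma cells, was at -2.84 and -2.69 against -4.15 and -3.83, and Mzb1, an endoplasmic reticulum chaperone of antibody-secreting cells, at 0.80 and 0.89 against -0.75 and -0.36. Xbp1 and Sdc1, which other lung cells also express, differed by less than 2-fold. The part of these cells in the immunoglobulin values was not tested.

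The lists had other values in the scanner files. The WT-labelled control array stood highest for B cell genes. On the KO-labelled control array 9 of 12 were at least 2-fold lower (median -1.35), against 2.3% of all probes. On the WT-labelled challenged array 9 of 12 were lower (median -1.38), against 1.94% of all probes. In the KO-labelled pair 0 of 12 passed 2-fold (4.14% of all probes higher, 4.16% lower). Between challenged arrays 0 of 12 did (4.02% and 3.8%). Ms4a1, the B cell surface protein CD20, was at 0.50 on the WT-labelled control array and at -0.98, -1.06 and -0.81 on the KO-labelled control, WT-labelled challenged and KO-labelled challenged arrays. The plasma cell list had a median of -0.05 between control arrays, with 2 of 12 at least 2-fold higher on the KO-labelled array (3.5% of all probes). Between challenged arrays its median was 0.27, with 1 of 11 (4.02% of all probes). Jchain was higher on both KO-labelled arrays (-1.68, -0.60, -2.15 and -0.12 in the order of groups above), while Mzb1, Irf4 and Pou2af1 were lower on the KO-labelled control array, by differences of -0.70, -0.92 and -0.86. On the KO-labelled control array 8 of 8 immature thymocyte genes were at least 2-fold higher than on the WT-labelled control array (median 4.50). Of all probes, 3.5% were. Rag1, part of the recombinase that joins V segments, was at 1.43 against -4.37. Dntt, which adds bases at the joints, was at 3.72 against -1.87. In the table Rag1 was at background on 4 arrays. How far thymocyte or B cell RNA enters the scanner values of these probes was not tested.

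Genes of class switching and rearrangement and of immunoglobulin transport were read from 2 further lists, of 19 and 11 genes. The genes named below are examples and do not stand for either list. Il4, the cytokine that directs switching to IgE and IgG1, was at -5.86, -6.16, -5.33 and -4.16 in the scanner files and at -4.54, -4.82, -4.20 and -3.79 in the table (WT-labelled control, KO-labelled control, WT-labelled challenged, KO-labelled challenged), higher after challenge in both pairs of both sources. In the WT-labelled pair this Il4 difference was less than 2-fold in both sources. The repair gene Msh6 and the glycosylase gene Ung differed by less than 2-fold between any compared arrays in both sources. Among the 11 receptor and transport genes, Pigr, which carries polymeric IgA across epithelium, was at 6.16, 6.77, 6.31 and 7.0 in the scanner files and at 3.95, 3.96, 4.42 and 4.76 in the table. Fcamr, a receptor for IgM and IgA, was at -5.14, -4.51, -3.88 and -2.85 and at -7.31, -7.54, -6.25 and -5.81, and was at least 2-fold higher after challenge in both pairs of both sources. Fcer1a, the IgE-binding chain of the high-affinity receptor, differed by less than 2-fold between any compared arrays, from -2.92 to -2.16 in the scanner files and -5.11 to -4.50 in the table.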

How the data were processed

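Expression was measured on 4 one-colour Agilent arrays, with groups taken from the sample titles. Per the file headers and the submitters' processing notes, spots were read with Agilent Feature Extraction (11.5.1.1), giving an intensity per spot with no normalization between arrays and with mm9 coordinates. The deposited value table holds a linear signal per spot and sample; the sources used here do not say how the authors made it. Agilent's flags for background, uneven and saturated spots came with the deposited scanner files; 20 uneven spots were left out and 0 were saturated.

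Repeat spots were averaged per probe in log2 (43020 spots, 39429 probes). Scanner levels are relative to the array's 75th percentile; the table's are plain log2 values. Above background means by the scanner's flag or, in the table, over 5 times the median negative control. Pairwise contrasts counted probes past 2-fold that were above background on at least 1 array of the pair. With 1 side at background the fold was set against the lowest signal above background on that array, or the probe's own where higher. The first gives an approximate bound, since the lowest averaged signal can lie below the background threshold. The second gives the measured difference and not a bound. Repeated spots of 1 probe had a median SD of 0.067 (scanner, 332 probes) and 0.057 (table, 339 probes) on the log2 scale. Averaged effects were fitted with limma 3.58.1 in R 4.3.3 over all probes, Benjamini-Hochberg at 0.05. The fit was also run on simulated data with independent noise. Such noise holds no spread between pools, so that run cannot show that the p-values hold for these arrays. The precision is limited by the number of arrays, 1 per group.

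The naming rule took every immunoglobulin-named probe, the constant probe of each class with the highest mean, and up to 6 genes per list in written order. It also ranked variable-segment probes above background on all arrays by challenge effect, label difference and difference of responses. The highest and lowest of those named by accession are not reported singly here. Second probes of a class, the other list genes and the sets by distance were picked with values in view. The members and lists were chosen with earlier results of these data known. Alternatives were other normalizations (quantile, median of detected probes, normexp with offset 50), filters, fold rules of 1.5 and 3, 1 probe per gene name, and limma with a variance trend or robust eBayes. Values of some list genes are not reported here.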

Additional observations from a re-analysis of the deposited data

Results flagged for a closer look

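Results of 3 constant-region probes pointed in opposite directions in the control and challenged arrays of the scanner files, by 2-fold or more on each side. For IgG2a (first probe) the difference between KO-labelled and WT-labelled array was 1.67 in controls and -1.33 after challenge on the log2 scale, a change of -3.0. For IgG2b it was 2.16 and -2.03, a change of -4.19. For the lambda 3 constant probe it was -1.29 and 1.01, a change of 2.30. With 1 array per group these changes were not tested. In the table the same probes were lower on the KO-labelled array in both treatments, by -3.62 and -3.83 for IgG2a, -4.62 and -4.86 for IgG2b, and -1.14 and -1.55 for lambda 3.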

How the results depend on the processing

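No array was left out, since each group had 1. No paired analysis was possible because each group has only replicate 1.

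Counts below are of named probes past 2-fold. In the WT-labelled pair of the scanner files the 2 lower with challenge became 1 under quantile normalization, 1 scaled to detected probes, 0 under normexp, 1 with both arrays above background and 0 at 3-fold; the median became -0.23 under normexp and -0.33 with no filter. In the KO-labelled pair the 2 became 1, 1 and 1 under these normalizations, 4 at 1.5-fold, 0 at 3-fold and 1 over 3 times the spot error; the median became -0.093 (normexp), -0.21 (both arrays) and -0.10 (no filter). Between scanner control arrays the 1 higher became 2 at 1.5-fold and the median -0.024 with no filter. Between scanner challenged arrays the 2 higher and 1 lower both became 0 under normexp and at 3-fold, and the median 0.10 (normexp) and 0.28 (no filter).

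In the table, the 1 higher in the WT-labelled pair became 0 with both arrays above background, the 1 lower became 3 at 1.5-fold, and the median -0.25 with 1 probe per name. In the KO-labelled pair 0 higher became 1 at 1.5-fold, 2 lower became 1 with both arrays and 1 at 3-fold, and the median -0.31 under quantile normalization. Between control arrays the 1 higher became 0 with both arrays above background, and the median -0.73 (quantile), -0.87 (detected probes), -2.0 (both arrays) and -0.82 (1 probe per name). Between challenged arrays the median became -0.79 (no filter) and -1.13 (1 probe per name). The 0 passing limma for the label became 5 with a variance trend and 3 with all arrays above background. The cause was not tested. No called value changed sign under the alternatives run. For single probes and variable-side medians, under normalizations chosen after seeing the data, values that moved by more than the SD of repeated spots numbered 60 (43 did not) with normexp, 51 (163) with quantile and 27 (187) with detected-probe scaling.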
